A study of Mus musculus with 9 samples.

Results

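MA9-IL-34 leukemia cells were compared with MA9-c-Kit+ leukemia cells, 3 RNA-seq libraries of each, which made up 6 of the 9 libraries of the series. By their labels both were c-kit+ cells sorted from the bone marrow of leukemic mice, while the study's methods gave a sort of MA9-IL-34 cells without naming c-Kit. They differed in the retrovirus they carried, one with IL-34 and the other without it, so the comparison addressed how the gene expression of c-Kit+ leukemia cells changed with IL-34. Libraries were put in groups by their labels, and 13722 of 55536 genes were tested, those with 1 TPM (transcripts per 1000000) or more in 3 or more of the 9 libraries. The remaining 3 libraries were MA9-c-Kit- cells, from the same leukemia without IL-34, and they entered the fit only to estimate the spread.

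MA9-IL-34 cells carried the GFP-marked MLL-AF9 retrovirus and the BFP-marked IL-34 retrovirus. The cells of both other groups, MA9-c-Kit+ and MA9-c-Kit-, carried the same MLL-AF9 retrovirus and a blank BFP-marked one. The leukemia had been started from lineage-negative CD45.1 marrow cells of C57B6.SJL mice, and its GFP+ cells were then infected in 2 separate arms. Sorted GFP+BFP+ cells were given at 100000 per mouse, without irradiation, to C57BL/6J recipients of 6 to 8 weeks, and marrow was taken on day 18. The sources did not say that an arm was infected more than once, so the effect of the IL-34 retrovirus and other differences between the infected cell populations cannot be told apart. Host marrow cells remained beside the leukemia. The labels gave no source mouse for a library, so the p-values measure the spread between these libraries, which may be technical. Each value is a share of a library's RNA, and a shift in the mix of cells and a shift in RNA per cell cannot be told apart.

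IL-34 is a cytokine that binds CSF1R, the receptor it shares with CSF1 and the one that keeps monocytes, macrophages and microglia alive. Signalling by CSF1R, as by the related receptors KIT and FLT3, runs through RAS and ERK, PI3K and AKT, and STAT proteins, and ERK switches on its own inhibitors. MLL-AF9 is a fusion of a chromatin regulator with an elongation factor partner that holds the HOXA genes and Meis1 on in myeloid progenitors. Its leukemias are myelomonocytic, and c-Kit marks their less mature cells.

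The files gave TPM without read counts, so the depth of each library is unknown. Libraries held between 12577 and 12624 genes at 1 TPM or more in MA9-IL-34 cells, against 12723 to 12870 in MA9-c-Kit+ cells. The MA9-IL-34 libraries were alike, with Spearman correlations across tested genes of 0.982 to 0.986, against 0.940 to 0.971 among MA9-c-Kit+ libraries. Between the groups the correlations were 0.920 to 0.942. Among MA9-c-Kit+ libraries replicate 2 stood apart: mitochondrially encoded genes took 5.10% of its TPM, against 10.7% in replicate 1 and 11.1% in replicate 3, and 9.03% to 10.01% in the MA9-IL-34 libraries. It was the highest of its group for 224 of the 464 genes that fell, and list counts without it are given where they differ. Kit, the receptor that the labels name, was at 112, 90.5 and 111 TPM in MA9-IL-34 libraries, against 135, 117 and 70.6 TPM in MA9-c-Kit+ libraries, with overlapping ranges (log2 fold change 0.01 ± 0.24, limma adjusted p = 0.993, 95% interval -0.55 to 0.56). It was at 2.46, 2.9 and 1.63 TPM in MA9-c-Kit- libraries.

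In all, 529 genes (3.86% of those tested) rose and 464 (3.38%) fell in MA9-IL-34 cells, 7.24% together. A gene was called where it changed at least 2-fold on the log2(TPM + 1) scale with a limma adjusted p under 0.05, and fold changes are given ± SE. The median log2 fold change over all tested genes was 0.01. Every called gene separated the 3 libraries of one group from the 3 of the other, as did 34.2% of all tested genes. Changes of 4-fold or more were found in 140 genes that rose and 172 that fell, and of 8-fold or more in 47 and 63. With no minimum fold, 1019 genes (7.43%) were higher and 753 (5.49%) lower. Without MA9-c-Kit+ replicate 2 the counts were 628 higher and 512 lower.

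**Figure D1:**
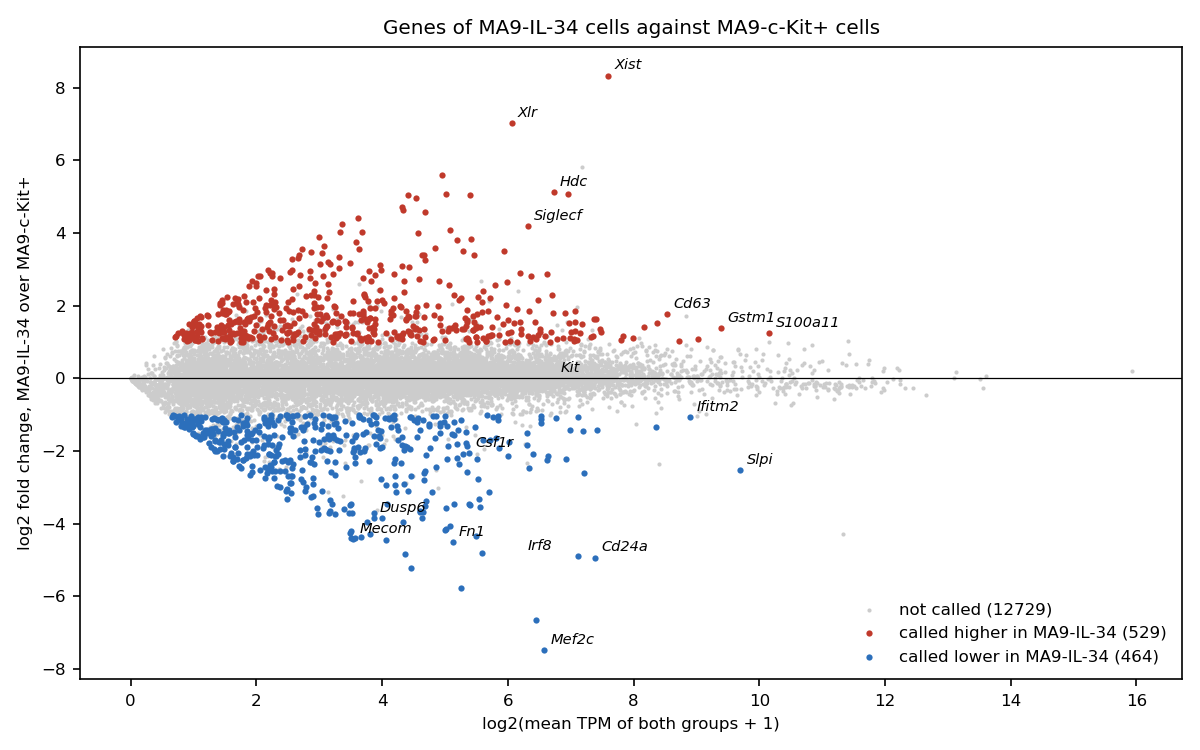
Each point is 1 tested gene, with log2 of the mean TPM of both groups plus 1 on the x axis and the log2 fold change of MA9-IL-34 over MA9-c-Kit+ cells on the y axis; red points are the 529 genes that rose and blue points the 464 that fell. Xist stands at the top at 8.33 and Mef2c at the bottom at -7.49, and Kit lies near 0.

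The gene with the largest rise was Xist, the long noncoding RNA that coats the inactive X chromosome in female mammals (chrX:103460366-103483254, minus strand, GRCm38). It was at 453, 331 and 371 TPM in MA9-IL-34 libraries, against 0.28, 0.23 and 0.06 TPM in MA9-c-Kit+ libraries. The 3 MA9-IL-34 libraries were thus all far above the 3 MA9-c-Kit+ libraries, and above the MA9-c-Kit- libraries, at 0.04, 0.08 and 0.02 TPM (log2 fold change 8.33 ± 0.16, limma adjusted p = 2.58e-08). The TruSeq RNA v2 kit did not mark strand, so reads of Xist and of its antisense partner Tsix cannot be told apart. The study's methods gave female mice. The Y-linked genes Ddx3y and Eif2s3y were listed at 0 in all 9 libraries, and Kdm5d and Uty did not exceed 0.1 TPM in any. Jpx, a noncoding gene beside Xist that promotes its transcription, was at 9.82, 8.25 and 8.63 TPM in MA9-IL-34 libraries, against 10.9, 8.71 and 9.83 TPM in MA9-c-Kit+ libraries (log2 fold change -0.12 ± 0.15, limma adjusted p = 0.661). What set Xist apart in the 2 arms was not tested.

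X-linked genes, with Xist counted among them, were called about as often as genes elsewhere. Of 387 tested X-linked genes, 17 rose (4.39%) and 13 fell (3.36%), near the 3.86% and 3.38% of all genes, and their median log2 fold change was 0.10. The X-linked rises, named after their values were seen, included members of a lymphoid gene family of the X chromosome. Xlr was at 152, 135 and 108 TPM in MA9-IL-34 libraries, against 0, 0 and 0.03 TPM in MA9-c-Kit+ libraries (log2 fold change 7.02 ± 0.18, limma adjusted p = 1.45e-07). Xlr4a was at 43.6, 40.1 and 37.9 TPM in MA9-IL-34 libraries, against 0.16, 0.68 and 0 TPM in MA9-c-Kit+ libraries (log2 fold change 5.05 ± 0.22, limma adjusted p = 1.84e-06). Its near-copy Xlr4b moved the other way, at 4.69, 3.64 and 4.13 TPM in MA9-IL-34 libraries, against 25.3, 14.6 and 20.1 TPM in MA9-c-Kit+ libraries (log2 fold change -1.999 ± 0.23, limma adjusted p = 0.000568), and reads of such near-identical copies may have been split between them. Trap1a, a tumor rejection antigen gene, was at 6.94, 4.57 and 6.97 TPM in the MA9-IL-34 libraries and was listed at 0 in all 6 other libraries. Btk, a kinase of B cell and myeloid receptor signalling, rose, at 171, 143 and 166 TPM in MA9-IL-34 libraries, against 74.5, 82.9 and 63.8 TPM in MA9-c-Kit+ libraries (log2 fold change 1.11 ± 0.14, limma adjusted p = 0.000863). Plp2, a membrane protein of the endoplasmic reticulum, fell, at 6.72, 7.73 and 4.74 TPM in MA9-IL-34 libraries, against 72.1, 78.1 and 107 TPM in MA9-c-Kit+ libraries (log2 fold change -3.55 ± 0.19, limma adjusted p = 6.92e-06).

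Among the falls, 21 genes were below 0.5 TPM in every MA9-IL-34 library and at 5 TPM or more in every MA9-c-Kit+ library. The reverse held for 15 genes. Mef2c, a transcription factor that drives MLL-fusion leukemia and monocyte fate, had the largest fall (chr13:83504034-83667080). It was at 0.02, 0 and 0.02 TPM in MA9-IL-34 libraries, against 163, 134 and 271 TPM in MA9-c-Kit+ libraries, with no overlap (log2 fold change -7.49 ± 0.22, limma adjusted p = 3.71e-07). Mecom, which encodes the stem cell factor EVI1, was at 0, 0 and 0.06 TPM in MA9-IL-34 libraries, against 18.8, 18.9 and 25.9 TPM in MA9-c-Kit+ libraries (log2 fold change -4.43 ± 0.17, limma adjusted p = 1.39e-06). Its relative Prdm16, another stem cell factor, was listed at 0 in all 3 MA9-IL-34 libraries, against 9.81, 12.03 and 5.95 TPM in MA9-c-Kit+ cells. All 3 genes were present in every MA9-c-Kit- library, Mef2c at 227, 231 and 270.0 TPM. Of the 21 genes, 14 were at 5 TPM or more in all MA9-c-Kit- libraries, and of the 15 genes, 12 were below 0.5 TPM there.

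The other large falls were spread over several functions. Ly6k, a GPI-anchored surface protein of male germ cells, was at 1.19, 0.44 and 0.38 TPM in MA9-IL-34 libraries, against 127, 259.9 and 129 TPM in MA9-c-Kit+ libraries (log2 fold change -6.64 ± 0.33, limma adjusted p = 4.12e-06). Hormad2, a meiotic chromosome protein, was at 0.06, 0.2 and 0.17 TPM in MA9-IL-34 libraries, against 47.6, 35.7 and 41.97 TPM in MA9-c-Kit+ libraries (log2 fold change -5.22 ± 0.17, limma adjusted p = 5.03e-07). Cd24a, a GPI-anchored sialoglycoprotein of immature blood cells and granulocytes, was at 8.27, 10.5 and 8.66 TPM in MA9-IL-34 libraries, against 313, 453 and 206 TPM in MA9-c-Kit+ libraries (log2 fold change -4.94 ± 0.27, limma adjusted p = 7.51e-06). Tmem178, a transmembrane protein that restrains calcium signalling in osteoclast precursors, was at 0, 0 and 0.15 TPM in MA9-IL-34 libraries, against 54.3, 148 and 21.5 TPM in MA9-c-Kit+ libraries. Arap2, an ARF GTPase-activating protein, and Fam174b, a membrane protein, were both below 0.2 TPM in the MA9-IL-34 libraries and at 14.1 TPM or more in the MA9-c-Kit+ libraries. All of these fell, with no overlap between the groups. Gabrb1, a GABA receptor subunit, and Eml5, a microtubule-binding protein, fell by 4.82 on the log2 scale each.

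Among the rises, Hdc, which makes histamine from histidine, was at 234, 173 and 206 TPM in MA9-IL-34 libraries, against 3.85, 10.02 and 2.76 TPM in MA9-c-Kit+ libraries (log2 fold change 5.12 ± 0.35, limma adjusted p = 2.40e-05). Lin28a, an RNA-binding protein of fetal and embryonic cells, was at 51.4, 50.3 and 42.9 TPM in MA9-IL-34 libraries, against 2.24, 1.2 and 0.23 TPM in MA9-c-Kit+ libraries (log2 fold change 4.57 ± 0.31, limma adjusted p = 2.40e-05). Lpcat2, an enzyme of platelet-activating factor synthesis, was at 27.1, 19.3 and 20.8 TPM in MA9-IL-34 libraries, against 0.03, 0.03 and 0.19 TPM in MA9-c-Kit+ libraries (log2 fold change 4.42 ± 0.18, limma adjusted p = 1.39e-06). These 3 genes were thus near absent from or low in all MA9-c-Kit+ libraries. Vcam1, an adhesion ligand of integrin alpha 4, was at 55.8, 70.4 and 63.6 TPM in MA9-IL-34 libraries, against 2.73, 3.21 and 2.38 TPM in MA9-c-Kit+ libraries (log2 fold change 4.09 ± 0.16, limma adjusted p = 1.39e-06). Ces1d, a carboxylesterase, Capn11, a calpain protease, Mtus2, a microtubule-associated protein, Arhgef38, a guanine nucleotide exchange factor, and Ccdc154 rose by 4.71 to 5.61 on the log2 scale. Col6a3, a chain of collagen VI, was at 24.9, 14.3 and 16.7 TPM in MA9-IL-34 libraries, against 0, 0.01 and 0.01 TPM in MA9-c-Kit+ libraries (log2 fold change 4.25 ± 0.21, limma adjusted p = 4.12e-06). The calls of the genes named in this and the 2 preceding paragraphs held when any 1 library was left out.

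**Figure D2:**
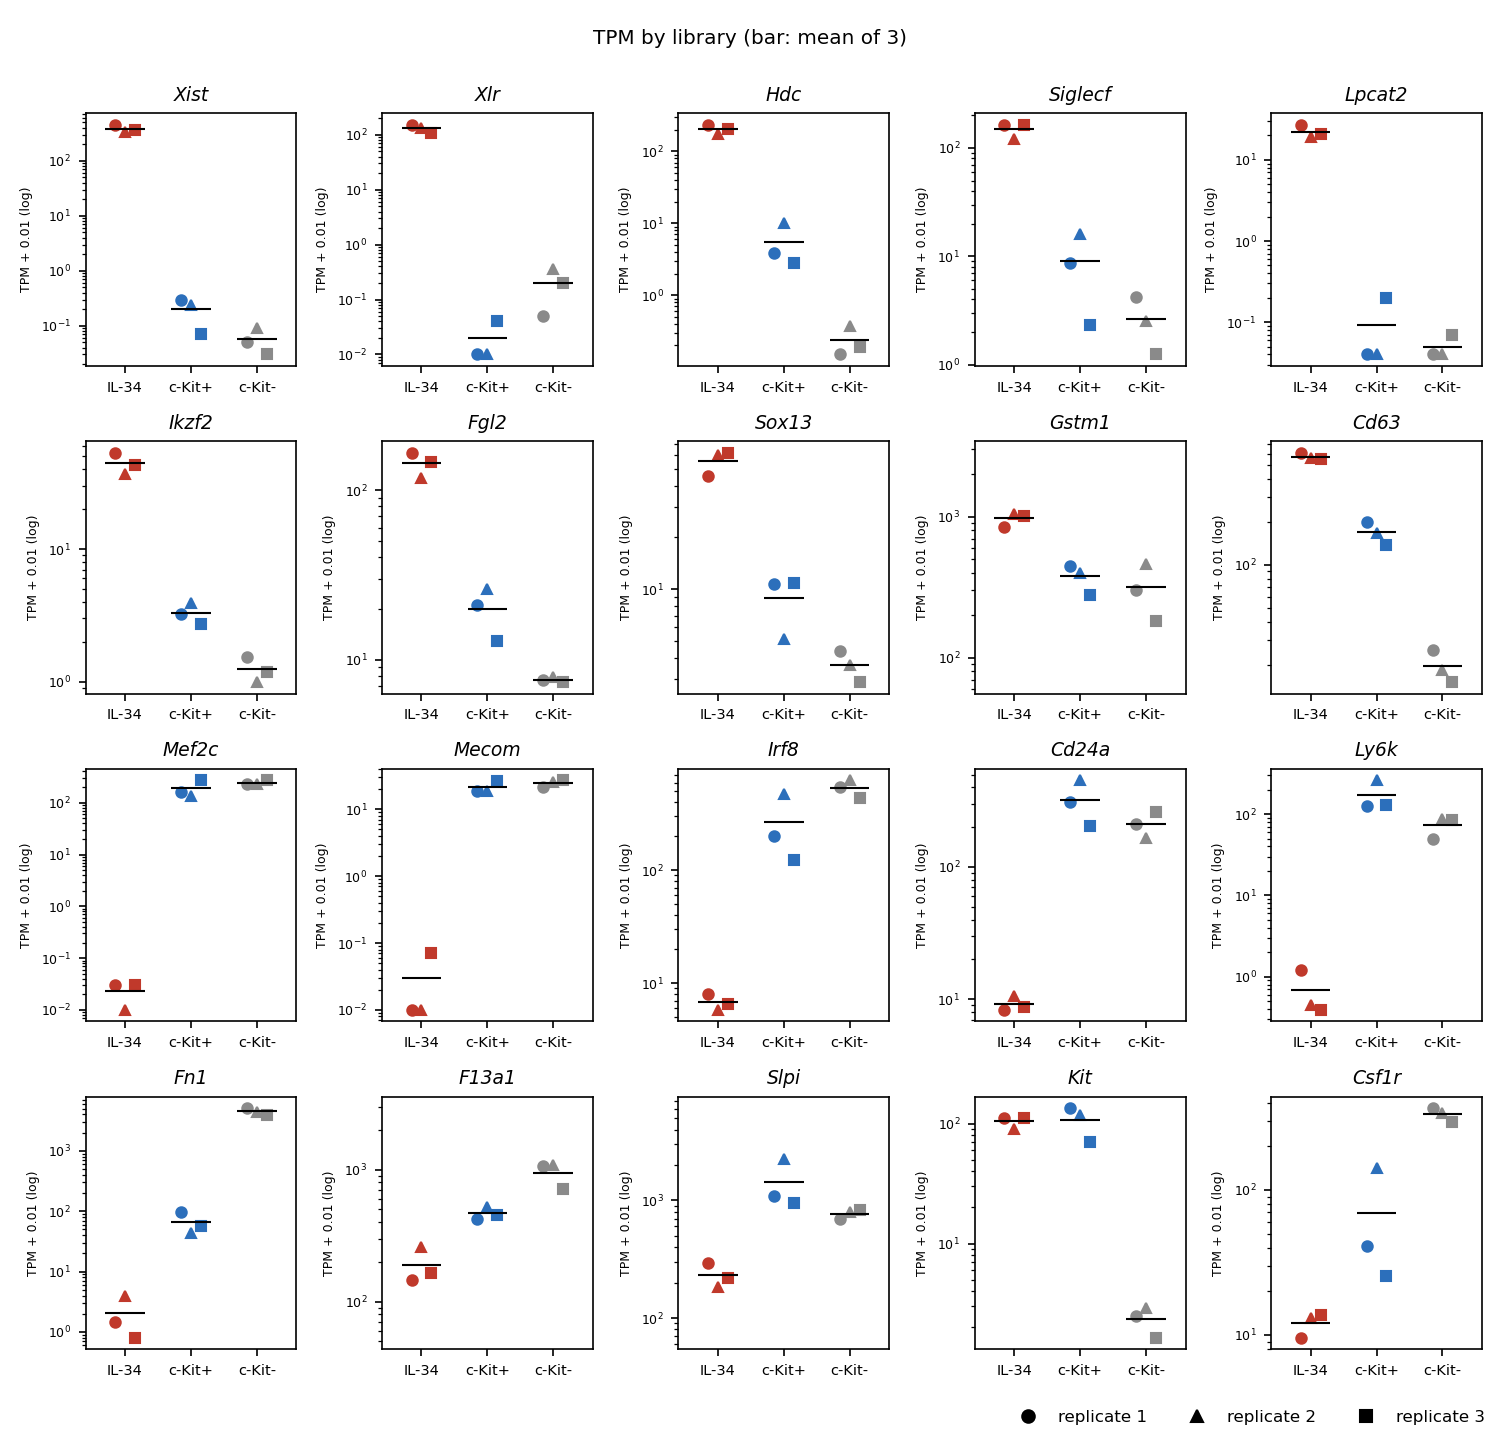
Each panel shows 1 gene in the 9 libraries, with TPM plus 0.01 on a log y axis, MA9-IL-34 libraries in red, MA9-c-Kit+ libraries in blue and MA9-c-Kit- libraries in gray; the bar is the mean of 3 libraries and the symbol is the replicate. The red and blue points do not overlap in any panel except that of Kit, and MA9-c-Kit+ replicate 2, the blue triangle, is the highest blue point for, among others, Irf8, Cd24a, Ly6k, Slpi and Csf1r.

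Genes of 1 direction were searched for short sequence strings in their promoters, since members that move together can share such strings. RefSeq windows (GRCm38.p6) of 250 bases before to 50 bases after a transcript start were matched by symbol for 9571 tested genes, of which 387 rose and 340 fell. The strings were searched on both strands, and a match is a description of the sequence and not of a bound site. GAGGAAGT, a string bound by the myeloid factor PU.1, was in the windows of 7.06% of the genes that fell, 3.10% of those that rose and 4.13% of all. TGACTCA, the AP-1 string, was in 8.27% of the genes that rose, 4.71% of those that fell and 4.37% of all. CCGGAAGT, a general ETS string, was in 2.33% of the genes that rose, 1.18% of those that fell and 9.69% of all. The ETS and PU.1 strings share the letters GGAAGT but neither contains the other. AAGATGGC, the YY1 string, was in 2.33%, 1.47% and 5.68%, in the same order. These strings were singled out after the shares were seen. The others searched were the C/EBP string TTGCNNAA, the TATA box as TATAAA, the NF-Y string as CCAATC, the string of the erythroid GATA factors as AGATAA, the RUNX string TGTGGTT, the E-box CACGTG and the cAMP response element TGACGTCA. Of these, TTGCNNAA was in 12.9% of the genes that rose, 12.4% of those that fell and 10.2% of all, and the TATA box string in 10.3%, 12.1% and 8.42%, in that order. No chance test was made on these shares.

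Windows of 120 bases upstream of the start are shown for genes named here whose string lay there, 5′ to 3′ in the direction of transcription, with the string or its reverse complement in capitals. The first 3 genes fell and carry the PU.1 string. Ctsc is cathepsin C, which activates granule proteases, Eng is endoglin, a TGF-beta coreceptor, and Spred2 is an inhibitor of RAS-ERK signalling.
Ctsc, chr7:88277878-88277997, plus strand: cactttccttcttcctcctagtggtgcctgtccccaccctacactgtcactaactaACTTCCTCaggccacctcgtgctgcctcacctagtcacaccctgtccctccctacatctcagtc
Eng, chr2:32646475-32646594, plus strand: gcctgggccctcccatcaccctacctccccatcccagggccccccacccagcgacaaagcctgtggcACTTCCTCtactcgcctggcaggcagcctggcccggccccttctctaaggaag
Spred2, chr11:19924322-19924441, plus strand: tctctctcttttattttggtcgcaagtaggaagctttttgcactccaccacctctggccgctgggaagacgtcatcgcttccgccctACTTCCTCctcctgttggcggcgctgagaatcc
The next 3 rose and carry the AP-1 string. S100a11 is a calcium-binding protein, Fgl2 a prothrombinase and immune regulator, and Prom1 the progenitor surface protein CD133.
S100a11, chr3:93520303-93520422, plus strand: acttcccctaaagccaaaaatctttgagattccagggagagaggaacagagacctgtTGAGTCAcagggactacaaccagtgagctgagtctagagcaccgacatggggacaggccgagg
Fgl2, chr5:21372553-21372672, plus strand: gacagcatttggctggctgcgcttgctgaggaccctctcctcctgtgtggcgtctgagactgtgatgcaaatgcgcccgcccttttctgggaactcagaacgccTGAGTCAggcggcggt
Prom1, chr5:44101762-44101881, minus strand: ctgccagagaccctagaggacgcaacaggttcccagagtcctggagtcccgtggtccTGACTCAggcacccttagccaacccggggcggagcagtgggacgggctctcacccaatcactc
The last 2 are interferon-stimulated genes that moved in opposite directions. Both hold GAAA, any 2 bases and GAAA again, a string of the interferon-stimulated response element. This string was in the windows of 3.88% of the genes that rose, 4.41% of those that fell and 3.83% of all. Ifitm2, a membrane protein that blocks virus entry, fell, and Oas1g, a sensor of double-stranded RNA, rose.
Ifitm2, chr7:140955962-140956081, minus strand: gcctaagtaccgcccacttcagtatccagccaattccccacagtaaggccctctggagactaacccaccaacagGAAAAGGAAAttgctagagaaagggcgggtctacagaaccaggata
Oas1g, chr5:120887614-120887733, minus strand: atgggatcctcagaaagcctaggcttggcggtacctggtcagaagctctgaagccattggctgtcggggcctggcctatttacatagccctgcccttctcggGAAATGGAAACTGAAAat

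**Figure D3:**
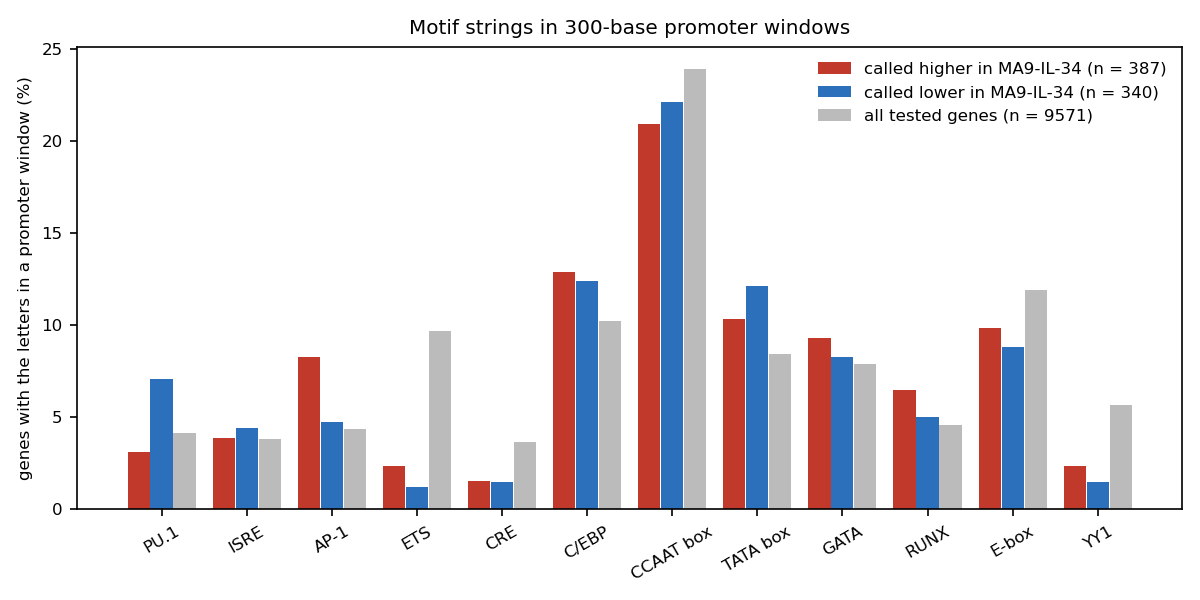
Bars give the percentage of genes with a string in at least 1 RefSeq promoter window of 300 bases, for genes that rose in MA9-IL-34 cells (red, n = 387), genes that fell (blue, n = 340) and all tested genes (gray, n = 9571). The PU.1 string is at 7.06% of the genes that fell against 4.13% of all, and the ETS string at 2.33% and 1.18% of the called genes against 9.69% of all.

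The genes that the study followed up came first among the listed members, and since they were picked from these libraries their direction here is no independent evidence. The study reported a separate check of its selected genes by qRT-PCR, whose values are not part of these data. Sox13, a SOX transcription factor, was at 45.3, 60.2 and 62.3 TPM in MA9-IL-34 libraries, against 10.8, 5.12 and 10.9 TPM in MA9-c-Kit+ libraries (log2 fold change 2.57 ± 0.27, limma adjusted p = 0.000382). Ikzf2, the Ikaros family factor Helios, was at 53.4, 36.7 and 43.1 TPM in MA9-IL-34 libraries, against 3.25, 3.9 and 2.73 TPM in MA9-c-Kit+ libraries (log2 fold change 3.39 ± 0.19, limma adjusted p = 9.02e-06). Fgl2 was at 166, 118 and 147 TPM in MA9-IL-34 libraries, against 20.8, 26.2 and 12.8 TPM in MA9-c-Kit+ libraries (log2 fold change 2.83 ± 0.23, limma adjusted p = 8.25e-05). None of these 3 overlapped between groups. Gfi1, a transcriptional repressor that acts in granulocytes and stem cells, was at 169, 156 and 187 TPM in MA9-IL-34 libraries, against 109, 80.4 and 56.1 TPM in MA9-c-Kit+ libraries (log2 fold change 1.10 ± 0.27, limma adjusted p = 0.0268), a call lost without MA9-IL-34 replicate 1, 2 or 3 or MA9-c-Kit+ replicate 3 (limma adjusted p = 0.0651 to 0.105). Prom1 was at 11.3, 18.5 and 12.98 TPM in MA9-IL-34 libraries, against 8.85, 2.54 and 4.09 TPM in MA9-c-Kit+ libraries (log2 fold change 1.42 ± 0.35, limma adjusted p = 0.03), a call lost without MA9-IL-34 replicate 1, 2 or 3 or MA9-c-Kit+ replicate 2 or 3 (limma adjusted p = 0.0543 to 0.111).

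The receptor of IL-34 itself was lower. Csf1r was at 9.55, 13.1 and 13.6 TPM in MA9-IL-34 libraries, against 40.8, 141 and 25.6 TPM in MA9-c-Kit+ libraries, and the ranges did not overlap (log2 fold change -2.06 ± 0.50, limma adjusted p = 0.0262). Its call was lost without MA9-IL-34 replicate 1, 2 or 3 (limma adjusted p = 0.0698 to 0.0992). Mouse Il34 was at 0.11, 0.1 and 0.14 TPM in the MA9-IL-34 libraries and listed at 0 in the other 6 libraries, under the filter; the study's primers for the transgene were for human IL-34, whose sequence was not part of the mouse gene table. Csf1, the other CSF1R ligand, was at 2.03, 1.01 and 1.55 TPM in MA9-IL-34 libraries, against 2.35, 4.3 and 1.35 TPM in MA9-c-Kit+ libraries (log2 fold change -0.48 ± 0.32, limma adjusted p = 0.409). Ptprz1, the alternative IL-34 receptor, was listed at 0 in all 9 libraries, and Sdc1, a syndecan that binds IL-34, did not exceed 0.92 TPM in these 6.

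Of 13 tested of the 23 listed growth factor receptors and ligands, 1 rose and 2 fell (23.1% of those tested against 7.24% of all genes). This list and those below were chosen with earlier results of these data known. Their shares beside 7.24% are therefore descriptions and do not measure enrichment. The list held 1 rise and 0 falls without MA9-IL-34 replicate 1 or 3. Flt3, the receptor of early progenitors, was at 0.74, 3.61 and 0.79 TPM in MA9-IL-34 libraries, against 67.4, 5.45 and 67.1 TPM in MA9-c-Kit+ libraries (log2 fold change -3.68 ± 0.85, limma adjusted p = 0.0207). MA9-c-Kit+ replicate 2 lay close to the MA9-IL-34 values, and the call was lost without MA9-IL-34 replicate 1 or 3 or MA9-c-Kit+ replicate 1 or 3 (limma adjusted p = 0.0623 to 0.0832). Pdgfrb, the PDGF receptor beta, rose, at 11.8, 10.5 and 10.4 TPM in MA9-IL-34 libraries, against 1.9, 3.2 and 1.5 TPM in MA9-c-Kit+ libraries (log2 fold change 1.93 ± 0.22, limma adjusted p = 0.000531). Of 30 tested of the 42 listed cytokine receptors, 2 rose and 5 fell (23.3% of those tested). That list held 4 rises and 4 falls without MA9-c-Kit+ replicate 2. Receptors of the IL-6 family were among the falls. Il6st, the shared signal chain gp130, was at 0.24, 0.19 and 0.13 TPM in MA9-IL-34 libraries, against 12.5, 17.1 and 10.5 TPM in MA9-c-Kit+ libraries (log2 fold change -3.57 ± 0.21, limma adjusted p = 1.27e-05). Il6ra, its IL-6-binding partner, was at 10.8, 15.9 and 15.2 TPM in MA9-IL-34 libraries, against 40.7, 48.2 and 23.6 TPM in MA9-c-Kit+ libraries (log2 fold change -1.32 ± 0.31, limma adjusted p = 0.0226), a call lost without MA9-IL-34 replicate 1, 2 or 3 or MA9-c-Kit+ replicate 1 or 2 (limma adjusted p = 0.0514 to 0.0942). Lifr, the receptor of LIF, fell by 1.39 on the log2 scale, a call lost without MA9-IL-34 replicate 1, 2 or 3 or MA9-c-Kit+ replicate 1 or 3 (limma adjusted p = 0.0652 to 0.078). Il1r1 and Il13ra1, the receptors of IL-1 and IL-13, fell by 1.71 and 1.21. Il13ra1 was low in both groups, at 0.06, 0.2 and 0.09 TPM in MA9-IL-34 libraries, against 1.25, 1.99 and 1.55 TPM in MA9-c-Kit+ libraries. It was at 62.5, 46.9 and 66.3 TPM in MA9-c-Kit- libraries. Il2rg, the common gamma chain, was at 68.2, 53.1 and 57.9 TPM in MA9-IL-34 libraries, against 12.4, 8.43 and 18.7 TPM in MA9-c-Kit+ libraries (log2 fold change 2.15 ± 0.27, limma adjusted p = 0.000931). Its partner Il21r was at 19.6, 16.3 and 20.3 TPM in MA9-IL-34 libraries, against 4.96, 8.64 and 2.13 TPM in MA9-c-Kit+ libraries (log2 fold change 1.80 ± 0.35, limma adjusted p = 0.00894). The list's median log2 fold change was -0.06 (-0.12 to 0.03 with 1 library left out). Csf2ra, the GM-CSF receptor alpha chain, was at 538, 562 and 632 TPM in MA9-IL-34 libraries, against 357, 423 and 342 TPM in MA9-c-Kit+ libraries, under the 2-fold limit (log2 fold change 0.63 ± 0.13, limma adjusted p = 0.0133).

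The called genes of ERK feedback all fell. Of 24 tested of the 29 listed ERK feedback and early response genes, 6 fell (25% of those tested against 7.24% of all genes) and none rose. The median log2 fold change was -0.57 against 0.01 over all genes, and it was -0.30 without MA9-c-Kit+ replicate 1 and -0.33 without MA9-IL-34 replicate 1. Dusp6, the phosphatase that inactivates ERK, was at 0.6, 0.95 and 1.16 TPM in MA9-IL-34 libraries, against 22.5, 24.97 and 31.4 TPM in MA9-c-Kit+ libraries (log2 fold change -3.84 ± 0.18, limma adjusted p = 3.23e-06). Spred1, an inhibitor of RAS activation, was at 2.21, 1.36 and 1.87 TPM in MA9-IL-34 libraries, against 10.3, 7.84 and 11.6 TPM in MA9-c-Kit+ libraries (log2 fold change -1.95 ± 0.23, limma adjusted p = 0.000642). Spred2 was at 6.54, 5.28 and 5.92 TPM in MA9-IL-34 libraries, against 21.3, 12.2 and 23.3 TPM in MA9-c-Kit+ libraries (log2 fold change -1.48 ± 0.27, limma adjusted p = 0.00691). In each, all MA9-IL-34 libraries lay below all MA9-c-Kit+ libraries, and each call held without any 1 library. Etv5, an ETS factor induced by ERK, was at 0.04, 0.04 and 0.1 TPM in MA9-IL-34 libraries, against 4.25, 1.82 and 7.08 TPM in MA9-c-Kit+ libraries (log2 fold change -2.22 ± 0.41, limma adjusted p = 0.00725). Its transcription follows ERK activity in many cell types. Ccnd1, the cyclin D1 gene and an ERK target, was at 0.65, 0.71 and 0.52 TPM in MA9-IL-34 libraries, against 20.96, 21.1 and 31.3 TPM in MA9-c-Kit+ libraries (log2 fold change -3.94 ± 0.31, limma adjusted p = 5.92e-05). Jun, an AP-1 factor that also responds to handling, was at 11.2, 59.3 and 58.3 TPM in MA9-IL-34 libraries, against 464, 168 and 126 TPM in MA9-c-Kit+ libraries (log2 fold change -2.62 ± 0.73, limma adjusted p = 0.0461), a call lost without MA9-IL-34 replicate 1, 2 or 3 or MA9-c-Kit+ replicate 1 or 2 or MA9-c-Kit- replicate 1 or 2 (limma adjusted p = 0.0532 to 0.144). Its AP-1 partner Fos ranged over 43.5, 217 and 201 TPM in MA9-IL-34 libraries, against 176, 97.6 and 18.5 TPM in MA9-c-Kit+ libraries and was not called (log2 fold change 0.84 ± 0.95, limma adjusted p = 0.647).

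Components further up or beside ERK were called in both directions. Of 33 tested of the 36 listed RAS and MAPK components, 2 rose and 3 fell (15.2% of those tested against 7.24% of all genes). The list held 1 rise and 2 falls without MA9-IL-34 replicate 3 and 3 rises and 2 falls without MA9-c-Kit+ replicate 2. Rasa4, a RAS GTPase-activating protein that responds to calcium, was at 2.45, 2.08 and 2.67 TPM in MA9-IL-34 libraries, against 59.1, 166 and 31.4 TPM in MA9-c-Kit+ libraries (log2 fold change -4.34 ± 0.52, limma adjusted p = 0.000711). Mras, a RAS family GTPase, was at 5.55, 4.18 and 6.99 TPM in MA9-IL-34 libraries, against 1.85, 1.63 and 0.91 TPM in MA9-c-Kit+ libraries (log2 fold change 1.41 ± 0.24, limma adjusted p = 0.00456). Of 30 tested of the 33 listed PI3K and AKT components, none rose and 3 fell (10% of those tested). Irs2, the insulin receptor adaptor, was at 3.34, 3.57 and 3.39 TPM in MA9-IL-34 libraries, against 15.1, 10.5 and 10.9 TPM in MA9-c-Kit+ libraries (log2 fold change -1.55 ± 0.16, limma adjusted p = 0.000385). Phlpp2, an AKT phosphatase, fell by 2.88 on the log2 scale. These calls held without any 1 library. Of 26 tested of the 27 listed JAK-STAT feedback genes only Pim1, a STAT5-induced kinase, was called (3.85% of those tested). It was at 6.0, 11.5 and 8.89 TPM in MA9-IL-34 libraries, against 101, 38.97 and 141 TPM in MA9-c-Kit+ libraries (log2 fold change -3.13 ± 0.43, limma adjusted p = 0.00148). None of 22 NF-kB genes was called by limma, 7 passed an unadjusted p of 0.05, and without a minimum fold 2 were lower. The list held 1 rise and 0 falls without MA9-c-Kit+ replicate 2 and 0 rises and 1 fall without MA9-c-Kit+ replicate 3.

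**Figure D4:**
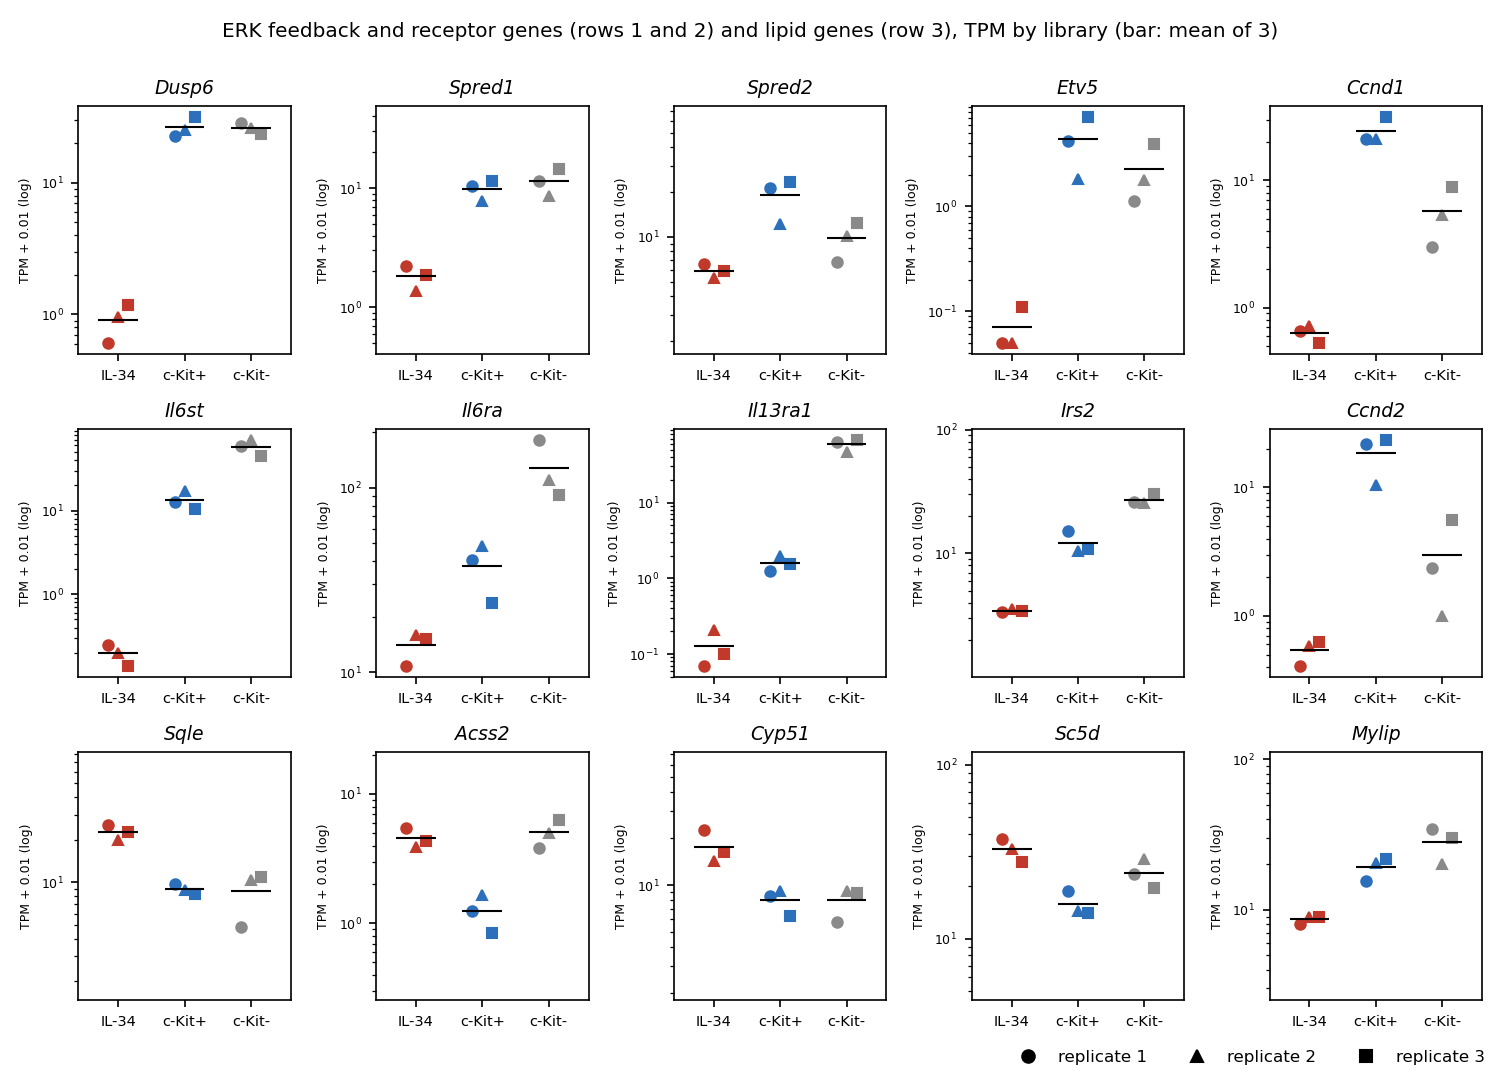
Each panel shows 1 gene in the 9 libraries, with TPM plus 0.01 on a log y axis, the MA9-IL-34 libraries in red, the MA9-c-Kit+ libraries in blue and the MA9-c-Kit- libraries in gray, the mean of 3 as a bar. In the first 2 rows all red points lie below all blue points, as for Dusp6 at 0.6, 0.95 and 1.16 TPM in MA9-IL-34 libraries, against 22.5, 24.97 and 31.4 TPM in MA9-c-Kit+ libraries; in the third row they lie above them except for Mylip.

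Hoxa9 and Meis1 were not called different, while other listed genes of the MLL-AF9 program were. Hoxa9, the homeobox factor central to this leukemia, was at 521, 469.8 and 476 TPM in MA9-IL-34 libraries, against 479, 348 and 682 TPM in MA9-c-Kit+ libraries (log2 fold change 0.01 ± 0.20, limma adjusted p = 0.982, 95% interval -0.45 to 0.47). Meis1, its cofactor, was at 104, 82.7 and 91.2 TPM in MA9-IL-34 libraries, against 95.97, 103 and 127 TPM in MA9-c-Kit+ libraries (log2 fold change -0.22 ± 0.13, limma adjusted p = 0.321, 95% interval -0.52 to 0.07). The ranges overlapped for both. Of 14 tested of the 15 listed genes of the HOXA cluster and its cofactors, 2 rose and none fell (14.3% of those tested against 7.24% of all genes). Pbx3, a HOX cofactor, was at 30.97, 24.1 and 25.6 TPM in MA9-IL-34 libraries, against 6.19, 8.35 and 7.67 TPM in MA9-c-Kit+ libraries (log2 fold change 1.73 ± 0.24, limma adjusted p = 0.00151). Hoxa2, a gene of the cluster, was at 23.4, 20.6 and 23.04 TPM in MA9-IL-34 libraries, against 6.38, 5.99 and 3.37 TPM in MA9-c-Kit+ libraries (log2 fold change 1.94 ± 0.27, limma adjusted p = 0.00165). Of 23 tested of the 26 listed regulators of MLL leukemia, Mef2c and Mecom fell and Igf2bp2, an RNA-binding protein, rose, by 1.27 on the log2 scale (13% of those tested). Myc was at 135, 178 and 209 TPM in MA9-IL-34 libraries, against 281, 219 and 84.5 TPM in MA9-c-Kit+ libraries (log2 fold change -0.02 ± 0.38, limma adjusted p = 0.985). Myb, a factor MLL-AF9 leukemia depends on, was at 639.9, 553 and 648 TPM in MA9-IL-34 libraries, against 495, 481 and 360.3 TPM in MA9-c-Kit+ libraries (log2 fold change 0.47 ± 0.14, limma adjusted p = 0.0564). Of the HOXB genes, looked up after their values were seen, Hoxb4 was at 0.07, 0.06 and 0 TPM in MA9-IL-34 libraries, against 4.14, 4.6 and 4.89 TPM in MA9-c-Kit+ libraries (log2 fold change -2.41 ± 0.21, limma adjusted p = 0.000113). Its neighbor Hoxb3 was listed at 0 in all MA9-IL-34 libraries, against 1.3, 1.2 and 1.45 TPM in MA9-c-Kit+ cells.

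Of 35 tested of the 40 listed blood progenitor transcription factors, 5 rose and 3 fell (22.9% of those tested against 7.24% of all genes), with a median of -0.08 (-0.08 to 0.00 with 1 library left out). That list held 6 rises and 4 falls without MA9-c-Kit+ replicate 2. Beside Ikzf2, Sox13 and Gfi1, the rises were of Zbtb16 and Ikzf3. Zbtb16, the factor PLZF, was at 17.3, 17.6 and 19.5 TPM in MA9-IL-34 libraries, against 6.73, 4.64 and 2.96 TPM in MA9-c-Kit+ libraries (log2 fold change 1.78 ± 0.34, limma adjusted p = 0.00821). Ikzf3, the factor Aiolos, was at 5.42, 1.4 and 3.18 TPM in MA9-IL-34 libraries, against 0.03, 0.49 and 0 TPM in MA9-c-Kit+ libraries (log2 fold change 1.80 ± 0.36, limma adjusted p = 0.0111). Beside Prdm16, the falls were of Satb1 and Sox12. Satb1, a chromatin organizer of lymphoid progenitors, was at 2.21, 3.2 and 1.44 TPM in MA9-IL-34 libraries, against 14.7, 13.6 and 7.74 TPM in MA9-c-Kit+ libraries (log2 fold change -1.97 ± 0.35, limma adjusted p = 0.00574). Sox12, a SOX factor, was at 0.16, 0.14 and 0.19 TPM in MA9-IL-34 libraries, against 3.45, 1.25 and 3.36 TPM in MA9-c-Kit+ libraries (log2 fold change -1.60 ± 0.29, limma adjusted p = 0.00707). Gata2, Runx1 and Spi1, which encodes PU.1, were not called. Spi1 was at 312, 335 and 357 TPM in MA9-IL-34 libraries, against 311, 268 and 291 TPM in MA9-c-Kit+ libraries (log2 fold change 0.21 ± 0.10, limma adjusted p = 0.223, 95% interval -0.01 to 0.42). Of 27 tested of the 34 listed progenitor surface proteins, 1 rose and 3 fell (14.8% of those tested). The list held 0 rises and 2 falls without MA9-IL-34 replicate 1 or 3 and 3 rises and 2 falls without MA9-c-Kit+ replicate 2. Cd34, a progenitor sialomucin, was at 40.9, 17.8 and 22.4 TPM in MA9-IL-34 libraries, against 115, 343 and 46.8 TPM in MA9-c-Kit+ libraries (log2 fold change -2.23 ± 0.63, limma adjusted p = 0.0497), highest in MA9-c-Kit+ replicate 2, and its call was lost when any of 8 libraries other than MA9-c-Kit+ replicate 3 was left out (limma adjusted p between 0.0553 and 0.156).

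Factors of the monocyte branch were among the falls. Of 35 tested of the 41 listed myeloid fate factors, 6 fell and 2 rose (22.9% of those tested against 7.24% of all genes). That list held 1 rise and 6 falls without MA9-c-Kit+ replicate 2. Irf8, which commits progenitors to monocytes and dendritic cells, was at 8.05, 5.76 and 6.45 TPM in MA9-IL-34 libraries, against 203, 476 and 124 TPM in MA9-c-Kit+ libraries, and replicate 2 was the highest MA9-c-Kit+ library (log2 fold change -4.90 ± 0.40, limma adjusted p = 8.25e-05). Irf5, an interferon regulatory factor of macrophages, was at 2.9, 3.75 and 2.63 TPM in MA9-IL-34 libraries, against 52.1, 49.8 and 36.98 TPM in MA9-c-Kit+ libraries (log2 fold change -3.52 ± 0.19, limma adjusted p = 7.78e-06). Vdr, the vitamin D receptor, was at 0.41, 0.34 and 0.34 TPM in MA9-IL-34 libraries, against 5.23, 6.98 and 6.98 TPM in MA9-c-Kit+ libraries (log2 fold change -2.43 ± 0.18, limma adjusted p = 4.53e-05). Tfeb, a factor of lysosome genes, was at 5.4, 5.61 and 6.51 TPM in MA9-IL-34 libraries, against 13.3, 16.6 and 15.3 TPM in MA9-c-Kit+ libraries (log2 fold change -1.23 ± 0.14, limma adjusted p = 0.000628). All 4 calls held without any 1 library. The retinoid receptor genes moved apart: Rxra rose, at 12.9, 12.4 and 12.8 TPM in MA9-IL-34 libraries, against 3.81, 3.88 and 3.4 TPM in MA9-c-Kit+ libraries (log2 fold change 1.55 ± 0.13, limma adjusted p = 9.51e-05), and Rara fell, at 1.4, 0.99 and 0.89 TPM in MA9-IL-34 libraries, against 5.65, 8.25 and 2.87 TPM in MA9-c-Kit+ libraries (log2 fold change -1.57 ± 0.32, limma adjusted p = 0.0125), a call lost without MA9-IL-34 replicate 3 (limma adjusted p = 0.0554). Cebpa, the granulocyte and monocyte progenitor factor, was at 102, 87.04 and 122 TPM in MA9-IL-34 libraries, against 89.97, 111 and 57.5 TPM in MA9-c-Kit+ libraries (log2 fold change 0.30 ± 0.26, limma adjusted p = 0.537). Cebpe, of late granulocytes, was at 122, 109.9 and 126 TPM in MA9-IL-34 libraries, against 57.4, 61.8 and 9.37 TPM in MA9-c-Kit+ libraries, with no overlap but no call (log2 fold change 1.84 ± 0.69, limma adjusted p = 0.129).

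Monocyte and macrophage genes held a large share of falls. Of 37 tested of the 46 listed genes, 12 fell and 2 rose (37.8% of those tested against 7.24% of all genes), with a median log2 fold change of -0.81. Since the members were chosen with earlier results of these data known, this share is a description and no measure of enrichment. The list held 0 rises and 9 falls without MA9-IL-34 replicate 1, 2 or 3 and 5 rises and 10 falls without MA9-c-Kit+ replicate 2. Summed over the list, their level was 2897 to 2971 TPM in MA9-IL-34 libraries, against 3674 to 6502 TPM in MA9-c-Kit+ libraries. In MA9-c-Kit- libraries the sum was 14011 to 18245 TPM. Whether some c-Kit- cells in the sorted MA9-c-Kit+ cells had a part in these falls was not tested. The same holds for Il13ra1, Irf5, Tlr2, Nlrp3, Cybb and S100a4, which fell and were also highest in MA9-c-Kit- libraries. Ctss, the protease cathepsin S of antigen-presenting cells, was at 1.96, 2.88 and 2.43 TPM in MA9-IL-34 libraries, against 49.02, 74.1 and 58.5 TPM in MA9-c-Kit+ libraries (log2 fold change -4.16 ± 0.17, limma adjusted p = 1.39e-06). Fn1, fibronectin, was at 1.44, 3.94 and 0.79 TPM in MA9-IL-34 libraries, against 97, 43.8 and 56.4 TPM in MA9-c-Kit+ libraries (log2 fold change -4.50 ± 0.38, limma adjusted p = 9.05e-05). Cd68, a macrophage lysosomal protein, was at 37.5, 49.6 and 37.2 TPM in MA9-IL-34 libraries, against 192, 259 and 149.6 TPM in MA9-c-Kit+ libraries (log2 fold change -2.22 ± 0.19, limma adjusted p = 0.000119). F13a1, the coagulation factor XIII A chain of monocytes, was at 144, 258 and 163 TPM in MA9-IL-34 libraries, against 423, 519 and 453 TPM in MA9-c-Kit+ libraries (log2 fold change -1.34 ± 0.23, limma adjusted p = 0.00526). Ifi30, a lysosomal thiol reductase, and Lgals3, galectin 3, fell by 1.92 and 1.86 on the log2 scale. The 2 rises were of Itgam, the integrin CD11b, at 113, 72.5 and 89.7 TPM in MA9-IL-34 libraries, against 25.5, 64.5 and 14.7 TPM in MA9-c-Kit+ libraries (log2 fold change 1.60 ± 0.43, limma adjusted p = 0.0412), and Fcgr4, an IgG receptor, at 29.4, 27.2 and 25.6 TPM in MA9-IL-34 libraries, against 9.84, 4.69 and 5.6 TPM in MA9-c-Kit+ libraries (log2 fold change 1.94 ± 0.41, limma adjusted p = 0.0146). The call of Itgam was lost without MA9-IL-34 replicate 1, 2 or 3 or MA9-c-Kit+ replicate 1 or 3 or MA9-c-Kit- replicate 1, 2 or 3 (limma adjusted p = 0.0534 to 0.147) and that of Fcgr4 without MA9-IL-34 replicate 1, 2 or 3 (limma adjusted p = 0.0506 to 0.0596). MA9-c-Kit+ replicate 2 had the largest sum of its group, and the median without it was -0.67.

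Some Toll-like receptors and lysosomal proteases were also among the falls, while most lysosomal genes lay on the higher side. Of 28 tested of the 30 listed Toll-like receptors and adaptors, 6 fell and 1 rose (25% of those tested against 7.24% of all genes). Tlr2, the receptor of bacterial lipoproteins, was at 0.51, 0.8 and 0.36 TPM in MA9-IL-34 libraries, against 11.5, 8.98 and 13.5 TPM in MA9-c-Kit+ libraries (log2 fold change -2.98 ± 0.20, limma adjusted p = 2.51e-05). Cd180, which dampens lipopolysaccharide sensing, was at 5.21, 2.3 and 3.54 TPM in MA9-IL-34 libraries, against 31.6, 52.04 and 21.4 TPM in MA9-c-Kit+ libraries (log2 fold change -2.90 ± 0.36, limma adjusted p = 0.000863). Its partner Ly86 was at 41.01, 31.3 and 34.2 TPM in MA9-IL-34 libraries, against 144, 213 and 130.5 TPM in MA9-c-Kit+ libraries (log2 fold change -2.14 ± 0.20, limma adjusted p = 0.000183). Nlrp3, the inflammasome sensor, was at 0.09, 0.28 and 0.15 TPM in MA9-IL-34 libraries, against 6.74, 8.74 and 2.94 TPM in MA9-c-Kit+ libraries (log2 fold change -2.51 ± 0.35, limma adjusted p = 0.00161). These 4 calls held without any 1 library. Of 44 tested of the 47 listed lysosomal genes, 5 fell and 2 rose (15.9% of those tested). In that list 28 genes had a positive and 16 a negative log2 fold change, with a median of 0.11. Their sums overlapped, at 5370 to 5803 TPM in MA9-IL-34 libraries, against 4595 to 6307 TPM in MA9-c-Kit+ libraries. That list held 5 rises and 5 falls without MA9-c-Kit+ replicate 2. Ctsc was at 4.77, 5.14 and 4.0 TPM in MA9-IL-34 libraries, against 44.5, 60.1 and 41.4 TPM in MA9-c-Kit+ libraries (log2 fold change -3.13 ± 0.17, limma adjusted p = 7.02e-06) and Ctsl, cathepsin L, at 8.99, 8.22 and 6.22 TPM in MA9-IL-34 libraries, against 35.5, 22.7 and 43.3 TPM in MA9-c-Kit+ libraries (log2 fold change -1.95 ± 0.26, limma adjusted p = 0.00121). The subunits of the phagocyte oxidase moved apart. Cybb, its catalytic subunit gp91, was at 3.49, 7.95 and 3.68 TPM in MA9-IL-34 libraries, against 73.3, 69.9 and 47.4 TPM in MA9-c-Kit+ libraries (log2 fold change -3.47 ± 0.27, limma adjusted p = 5.63e-05). Cyba, its partner p22, was at 570.1, 557 and 557 TPM in MA9-IL-34 libraries, against 239, 360.4 and 240.0 TPM in MA9-c-Kit+ libraries (log2 fold change 1.03 ± 0.15, limma adjusted p = 0.00223), a call lost without MA9-c-Kit+ replicate 1 or 3 (log2 fold change 0.93, limma adjusted p = 0.00793 to 0.00993), under the 2-fold limit.

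Granule genes were called in both directions. Among 18 genes listed for primary granules, 3 rose and 2 fell (27.8% of those tested against 7.24% of all genes). The falls were of Ctsc and of Igfbp4, a listed gene that encodes a binding protein of insulin-like growth factors and not a granule protein. Igfbp4 fell by 1.71 on the log2 scale, a call lost without MA9-IL-34 replicate 1 (limma adjusted p = 0.0508). Mpo, myeloperoxidase, was at 2936, 4258 and 5184 TPM in MA9-IL-34 libraries, against 6711, 8177 and 1639 TPM in MA9-c-Kit+ libraries (log2 fold change -0.16 ± 0.72, limma adjusted p = 0.926). Prtn3, proteinase 3, was at 3859, 4668 and 4765 TPM in MA9-IL-34 libraries, against 4527, 5418 and 3708 TPM in MA9-c-Kit+ libraries (log2 fold change -0.03 ± 0.18, limma adjusted p = 0.95), with overlapping ranges for both. Cd63, a granule and lysosome membrane protein, was at 611, 559 and 548 TPM in MA9-IL-34 libraries, against 199, 168 and 138 TPM in MA9-c-Kit+ libraries (log2 fold change 1.77 ± 0.19, limma adjusted p = 0.000385). Cst7, an inhibitor of cathepsin C, was at 146, 168 and 173 TPM in MA9-IL-34 libraries, against 48.04, 49.3 and 40.3 TPM in MA9-c-Kit+ libraries (log2 fold change 1.80 ± 0.12, limma adjusted p = 2.40e-05). Prss57, a granule protease, was at 56.7, 94.9 and 86.7 TPM in MA9-IL-34 libraries, against 24.1, 16.6 and 6.56 TPM in MA9-c-Kit+ libraries (log2 fold change 2.39 ± 0.45, limma adjusted p = 0.00848). The called granule genes thus included an inhibitor and its target with opposite signs. Of 22 tested of the 28 listed neutrophil genes, 4 rose and none fell (18.2% of those tested). The list held 2 rises and 0 falls without MA9-IL-34 replicate 1 or 3 or MA9-c-Kit- replicate 2 and 3 rises and 1 fall without MA9-c-Kit+ replicate 2. Their median of 0.61 was 0.04 without MA9-c-Kit+ replicate 3, and their summed level was 979 to 2490.0 TPM in MA9-IL-34 libraries, against 1225 to 7618 TPM in MA9-c-Kit+ libraries. Anxa1, the annexin that limits neutrophil recruitment, was at 199, 346 and 208 TPM in MA9-IL-34 libraries, against 86.7, 87.8 and 61.2 TPM in MA9-c-Kit+ libraries (log2 fold change 1.63 ± 0.23, limma adjusted p = 0.00159). Stfa1, a stefin of a multigene family, was at 21.8, 18.4 and 9.38 TPM in MA9-IL-34 libraries, against 3.46, 0 and 0.84 TPM in MA9-c-Kit+ libraries (log2 fold change 3.04 ± 0.57, limma adjusted p = 0.00774). Chil3, a chitinase-like protein, varied widely, at 18.5, 1176 and 127 TPM in MA9-IL-34 libraries, against 6671, 478 and 6974 TPM in MA9-c-Kit+ libraries, and was not called (log2 fold change -4.30 ± 1.42, limma adjusted p = 0.0854).

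Some genes of eosinophils, basophils and mast cells rose. Of 18 tested of the 41 listed genes, 5 rose and none fell (27.8% of those tested against 7.24% of all genes), with a median of 0.34, and a gene could pass the filter through MA9-IL-34 cells alone. That list held 3 rises and 0 falls without MA9-IL-34 replicate 1 or 2 and 7 rises and 0 falls without MA9-c-Kit+ replicate 2. Of its tested genes 10 had a positive and 8 a negative log2 fold change, and 23 listed genes were under the filter. The list summed to 1060 to 1312 TPM in MA9-IL-34 libraries, against 656 to 713 TPM in MA9-c-Kit+ libraries. In MA9-c-Kit- libraries the sum was 1134 to 1345 TPM. Beside Hdc, Siglecf, an eosinophil lectin, was at 163, 120.1 and 164 TPM in MA9-IL-34 libraries, against 8.75, 15.9 and 2.31 TPM in MA9-c-Kit+ libraries (log2 fold change 4.18 ± 0.53, limma adjusted p = 0.00101). Prg3, an eosinophil granule protein, was at 13.8, 6.34 and 11.2 TPM in MA9-IL-34 libraries, against 1.45, 2.32 and 0.44 TPM in MA9-c-Kit+ libraries (log2 fold change 2.27 ± 0.37, limma adjusted p = 0.00407). Alox5, the 5-lipoxygenase of leukotriene synthesis, was at 9.18, 7.57 and 5.73 TPM in MA9-IL-34 libraries, against 3.58, 2.6 and 1.73 TPM in MA9-c-Kit+ libraries (log2 fold change 1.24 ± 0.26, limma adjusted p = 0.0147), a call lost without MA9-IL-34 replicate 1 or 2 (limma adjusted p = 0.0557 to 0.0689). Cpa3, a mast cell carboxypeptidase, reached 47.1 TPM in MA9-IL-34 replicate 1 but 11.3 and 16.5 TPM in the others, against 1.8, 10.7 and 1.0 TPM in MA9-c-Kit+ cells. Its call (log2 fold change 2.43 ± 0.68, limma adjusted p = 0.0459) was lost without MA9-IL-34 replicate 1, 2 or 3 or MA9-c-Kit+ replicate 1 or 3 or MA9-c-Kit- replicate 1, 2 or 3 (limma adjusted p = 0.054 to 0.16). In MA9-c-Kit- libraries Alox5 was at 8.77, 5.32 and 8.59 TPM, near its MA9-IL-34 level. Hdc, Siglecf, Prg3 and Cpa3 did not exceed 4.16 TPM there.

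Interferon-stimulated genes moved in both directions. Of 52 tested of the 58 listed genes, 6 rose and 4 fell (19.2% of those tested against 7.24% of all genes), with a median of 0.10 (-0.14 to 0.47 with 1 library left out). The list held 8 rises and 4 falls without MA9-c-Kit+ replicate 2. Ifitm2 was at 318, 297 and 304 TPM in MA9-IL-34 libraries, against 629.8, 615 and 698 TPM in MA9-c-Kit+ libraries (log2 fold change -1.08 ± 0.15, limma adjusted p = 0.00159). Ifitm1 was at 0.28, 0.15 and 0.52 TPM in MA9-IL-34 libraries, against 2.43, 13.1 and 11.5 TPM in MA9-c-Kit+ libraries (log2 fold change -2.69 ± 0.46, limma adjusted p = 0.0052) and Ifitm3 at 3.02, 1.33 and 1.47 TPM in MA9-IL-34 libraries, against 9.13, 78.4 and 12.04 TPM in MA9-c-Kit+ libraries (log2 fold change -2.94 ± 0.70, limma adjusted p = 0.0238). The call of Ifitm3 was lost without MA9-IL-34 replicate 1, 2 or 3 (limma adjusted p = 0.0528 to 0.0877), and reads of these similar genes may have been split. Oas1g was at 18.7, 13.1 and 13.1 TPM in MA9-IL-34 libraries, against 3.49, 5.5 and 3.92 TPM in MA9-c-Kit+ libraries (log2 fold change 1.59 ± 0.28, limma adjusted p = 0.00614). Oas2, of the same family, was at 19.6, 8.54 and 12.8 TPM in MA9-IL-34 libraries, against 3.35, 4.46 and 3.7 TPM in MA9-c-Kit+ libraries (log2 fold change 1.53 ± 0.28, limma adjusted p = 0.00745). Ifi27, a small mitochondrial protein, was at 183, 100.2 and 143 TPM in MA9-IL-34 libraries, against 19.6, 65.97 and 20.4 TPM in MA9-c-Kit+ libraries (log2 fold change 2.17 ± 0.42, limma adjusted p = 0.00983). Of 21 class I antigen presentation genes only H2-Q6, a nonclassical class I gene of a multigene family, fell (4.76% of those tested). It was at 11.9, 4.19 and 15.6 TPM in MA9-IL-34 libraries, against 48.7, 121 and 38.8 TPM in MA9-c-Kit+ libraries (log2 fold change -2.59 ± 0.50, limma adjusted p = 0.00939). None of 14 class II genes was called by limma, and 2 passed an unadjusted p of 0.05. The class II list held 1 rise and 0 falls without MA9-c-Kit- replicate 1 or 3, and the class I list 0 rises and 3 falls without MA9-c-Kit+ replicate 1.

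Of 26 tested of the 42 listed integrins and adhesion genes, 2 rose and 4 fell (23.1% of those tested against 7.24% of all genes). That list held 1 rise and 2 falls without MA9-IL-34 replicate 3, 0 rises and 2 falls without MA9-c-Kit+ replicate 1 and 5 rises and 3 falls without MA9-c-Kit+ replicate 2. Itga1, a collagen-binding integrin chain, was at 0.2, 0.03 and 0.15 TPM in MA9-IL-34 libraries, against 23.6, 62 and 8.36 TPM in MA9-c-Kit+ libraries (log2 fold change -4.44 ± 0.57, limma adjusted p = 0.00109). Itga6, a laminin-binding chain, was at 18.4, 15.6 and 16.7 TPM in MA9-IL-34 libraries, against 60.95, 77.6 and 45.9 TPM in MA9-c-Kit+ libraries (log2 fold change -1.78 ± 0.18, limma adjusted p = 0.000266). Itga4, the chain that binds VCAM1, was at 51.4, 51.5 and 49.5 TPM in MA9-IL-34 libraries, against 49.6, 62.4 and 41.97 TPM in MA9-c-Kit+ libraries (log2 fold change 0.00 ± 0.17, limma adjusted p = 0.994), while its ligand Vcam1 rose. Itga9, another chain that binds VCAM1, was at 3.26, 4.6 and 7.59 TPM in MA9-IL-34 libraries, against 0.12, 0.07 and 1.98 TPM in MA9-c-Kit+ libraries (log2 fold change 1.95 ± 0.41, limma adjusted p = 0.0134), a call lost without MA9-IL-34 replicate 3 or MA9-c-Kit+ replicate 1 (limma adjusted p = 0.052 to 0.0607). Of 23 tested of the 48 listed chemokine genes and receptors, 2 rose (8.7% of those tested). The list held 1 rise and 0 falls without MA9-IL-34 replicate 1, 2 or 3 and 2 rises and 2 falls without MA9-c-Kit+ replicate 3. Ccr1, a receptor of monocytes and granulocytes, was at 31.9, 33.3 and 31.6 TPM in MA9-IL-34 libraries, against 13.8, 14.4 and 8.2 TPM in MA9-c-Kit+ libraries (log2 fold change 1.38 ± 0.25, limma adjusted p = 0.00678). Ltb4r1, the leukotriene B4 receptor, was at 66.7, 70.2 and 77.9 TPM in MA9-IL-34 libraries, against 29.6, 21.6 and 4.12 TPM in MA9-c-Kit+ libraries (log2 fold change 2.25 ± 0.56, limma adjusted p = 0.0287), a call lost without MA9-IL-34 replicate 1, 2 or 3 (limma adjusted p = 0.082 to 0.0997).

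Most cholesterol synthesis genes lay on the higher side. Of 31 tested of the 33 listed genes, 4 rose and 1 fell (16.1% of those tested against 7.24% of all genes), 27 had a positive log2 fold change, and the median was 0.62 against 0.01 over all genes. That list held 1 rise and 1 fall without MA9-IL-34 replicate 1, 2 rises and 1 fall without MA9-IL-34 replicate 3, 3 rises and 1 fall without MA9-c-Kit+ replicate 2 and 2 rises and 0 falls without MA9-c-Kit+ replicate 3. With no minimum fold 10 were higher and 1 lower. Sqle, squalene epoxidase, was at 25.4, 19.7 and 22.5 TPM in MA9-IL-34 libraries, against 9.66, 8.8 and 8.3 TPM in MA9-c-Kit+ libraries (log2 fold change 1.24 ± 0.26, limma adjusted p = 0.0135), a call lost without MA9-IL-34 replicate 1 or 3 (limma adjusted p = 0.0554 to 0.0633). Cyp51, a demethylase of the pathway, was at 22.5, 14.3 and 16.3 TPM in MA9-IL-34 libraries, against 8.47, 9.11 and 6.27 TPM in MA9-c-Kit+ libraries (log2 fold change 1.05 ± 0.23, limma adjusted p = 0.0169), a call lost without MA9-IL-34 replicate 1 or 3 or MA9-c-Kit+ replicate 3 (limma adjusted p = 0.0502 to 0.073). Sc5d, a desaturase, was at 37.6, 32.6 and 27.7 TPM in MA9-IL-34 libraries, against 18.8, 14.4 and 13.96 TPM in MA9-c-Kit+ libraries (log2 fold change 1.01 ± 0.18, limma adjusted p = 0.00707), a call lost without MA9-IL-34 replicate 1 or MA9-c-Kit+ replicate 2 or 3 (log2 fold change 0.90 to 0.96, limma adjusted p = 0.0176 to 0.037). The calls of these 3 genes thus each rested on some libraries. Mylip, the ligase that degrades the LDL receptor, was the 1 that fell, at 8.08, 8.9 and 8.86 TPM in MA9-IL-34 libraries, against 15.4, 20.4 and 21.7 TPM in MA9-c-Kit+ libraries (log2 fold change -1.06 ± 0.21, limma adjusted p = 0.00962), a call lost without MA9-c-Kit+ replicate 3 (log2 fold change -0.96, limma adjusted p = 0.0314).

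Other lipid genes were called in both directions. Of 19 tested of the 22 listed fatty acid synthesis genes, 2 rose and 2 fell (21.1% of those tested against 7.24% of all genes). The list held 3 rises and 2 falls without MA9-c-Kit+ replicate 2. The rises were of Acss2, which makes acetyl-CoA from acetate, at 5.5, 3.88 and 4.31 TPM in MA9-IL-34 libraries, against 1.23, 1.65 and 0.84 TPM in MA9-c-Kit+ libraries (log2 fold change 1.32 ± 0.22, limma adjusted p = 0.00481), and Dgat2, which makes triglycerides, at 16.4, 22.8 and 20.9 TPM in MA9-IL-34 libraries, against 9.71, 4.83 and 7.72 TPM in MA9-c-Kit+ libraries (log2 fold change 1.35 ± 0.27, limma adjusted p = 0.0105). Elovl7, a fatty acid elongase, fell, at 0.91, 0.39 and 0.57 TPM in MA9-IL-34 libraries, against 5.06, 5.22 and 2.85 TPM in MA9-c-Kit+ libraries (log2 fold change -1.71 ± 0.25, limma adjusted p = 0.00223). Of 26 tested of the 29 listed fatty acid oxidation genes, 3 rose and none fell (11.5% of those tested). That list held 1 rise and 0 falls without MA9-IL-34 replicate 1, 2 or 3 or MA9-c-Kit+ replicate 1 or MA9-c-Kit- replicate 2 or 3 and 0 rises and 1 fall without MA9-c-Kit+ replicate 3. Etfb, the electron transfer flavoprotein beta chain, was at 643, 715 and 769.9 TPM in MA9-IL-34 libraries, against 336, 382 and 285 TPM in MA9-c-Kit+ libraries (log2 fold change 1.09 ± 0.13, limma adjusted p = 0.000789), a call lost without MA9-c-Kit+ replicate 3 (log2 fold change 0.98, limma adjusted p = 0.00227).

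Among 30 glycolysis and lactate genes, 3 rose and 2 fell (16.7% of those tested against 7.24% of all genes). Ldhb, the lactate dehydrogenase B chain, was at 1.41, 2.44 and 2.99 TPM in MA9-IL-34 libraries, against 74.3, 67.3 and 37.8 TPM in MA9-c-Kit+ libraries, with no overlap (log2 fold change -4.19 ± 0.31, limma adjusted p = 4.30e-05). Slc16a3, the lactate exporter MCT4, was at 84.2, 82.8 and 97.4 TPM in MA9-IL-34 libraries, against 30.3, 25.3 and 36.6 TPM in MA9-c-Kit+ libraries (log2 fold change 1.501 ± 0.14, limma adjusted p = 0.000161). Pfkfb3 and Pfkfb4, which make the activator of phosphofructokinase, rose by 1.42 and 1.24 on the log2 scale, and Fbp1, a gluconeogenic phosphatase, fell by 1.63, a call lost without MA9-IL-34 replicate 1 or 3 or MA9-c-Kit+ replicate 1 or 3 (limma adjusted p = 0.0606 to 0.0816). Of 34 tested of the 41 listed amino acid supply and ATF4 genes, none rose and 2 fell (5.88% of those tested). The list held 0 rises and 1 fall without MA9-IL-34 replicate 1, 2 or 3 or MA9-c-Kit+ replicate 1 or 2. Phgdh, the first enzyme of serine synthesis, was at 12.1, 17.6 and 15.7 TPM in MA9-IL-34 libraries, against 72.4, 61.2 and 88.4 TPM in MA9-c-Kit+ libraries (log2 fold change -2.22 ± 0.32, limma adjusted p = 0.00217). Pycr1, of proline synthesis, was at 3.52, 5.24 and 4.6 TPM in MA9-IL-34 libraries, against 12.9, 15.2 and 8.72 TPM in MA9-c-Kit+ libraries (log2 fold change -1.27 ± 0.31, limma adjusted p = 0.0273), a call lost without MA9-IL-34 replicate 1, 2 or 3 or MA9-c-Kit+ replicate 1 or 2 (limma adjusted p = 0.0577 to 0.108).

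Genes of the cell cycle machinery were not called by limma, while some of their regulators were. None of 54 replication genes and none of 53 mitosis genes passed, with medians of 0.17 (0.09 to 0.25 with 1 library left out) and 0.19 (0.14 to 0.27 with 1 library left out) and positive values in 39 and 42. With no minimum fold 2 replication genes were higher and 1 lower, and 3 mitosis genes were higher and 1 lower, and at an unadjusted p under 0.05, 6 and 14 passed. Mki67 was at 179.8, 148 and 175 TPM in MA9-IL-34 libraries, against 131, 162 and 154 TPM in MA9-c-Kit+ libraries (log2 fold change 0.17 ± 0.11, limma adjusted p = 0.403). Of 25 tested of the 26 listed cyclins, kinases and inhibitors, 3 fell and 1 rose (16% of those tested against 7.24% of all genes). That list held 2 rises and 3 falls without MA9-c-Kit+ replicate 2. Ccnd2, cyclin D2, was at 0.4, 0.57 and 0.62 TPM in MA9-IL-34 libraries, against 21.98, 10.4 and 23.3 TPM in MA9-c-Kit+ libraries (log2 fold change -3.60 ± 0.43, limma adjusted p = 0.000711), and fell with Ccnd1. Cdkn1a, the p53-induced inhibitor p21, was at 9.39, 9.93 and 10.3 TPM in MA9-IL-34 libraries, against 25.4, 29.3 and 23.4 TPM in MA9-c-Kit+ libraries (log2 fold change -1.31 ± 0.13, limma adjusted p = 0.000213). Cdkn2c, the CDK4 and CDK6 inhibitor p18, rose, at 111, 82.3 and 88.2 TPM in MA9-IL-34 libraries, against 12.2, 25.2 and 10.3 TPM in MA9-c-Kit+ libraries (log2 fold change 2.58 ± 0.28, limma adjusted p = 0.000439). These calls held without any 1 library.

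Of 29 tested of the 33 listed p53 targets, 1 rose and 2 fell (10.3% of those tested against 7.24% of all genes). The list held 2 rises and 2 falls without MA9-c-Kit+ replicate 2. Gadd45b, a stress-response gene, was at 83.4, 65.5 and 81.2 TPM in MA9-IL-34 libraries, against 24.4, 14.8 and 13.8 TPM in MA9-c-Kit+ libraries (log2 fold change 2.09 ± 0.24, limma adjusted p = 0.000561). Of 19 tested of the 24 listed BCL2 family genes, 1 rose and 3 fell (21.1% of those tested). That list held 1 rise and 1 fall without MA9-IL-34 replicate 1, 0 rises and 2 falls without MA9-IL-34 replicate 3 and 1 rise and 2 falls without MA9-c-Kit+ replicate 2. Bcl2, the survival protein, was at 4.42, 2.36 and 3.2 TPM in MA9-IL-34 libraries, against 16.4, 39.4 and 11.5 TPM in MA9-c-Kit+ libraries, with no overlap (log2 fold change -2.28 ± 0.40, limma adjusted p = 0.00565). No member was called among 45 MYC and ribosome biogenesis genes, 82 cytosolic ribosomal protein genes and 13 mitochondrially encoded genes. With no minimum fold, 1 MYC gene was higher, 2 ribosomal protein genes were lower and 3 mitochondrial genes were higher, and at an unadjusted limma p under 0.05, 1, 14 and 6 genes passed in these 3 lists. The mitochondrial list held 1 rise and 0 falls without MA9-IL-34 replicate 2. The ribosomal protein genes had a median of -0.20, with negative values in 79 of 82, and summed to 144062 to 151482 TPM in MA9-IL-34 libraries, against 159858 to 180227 TPM in MA9-c-Kit+ libraries. Of 77 tested of the 92 listed nuclear-encoded respiratory chain genes only Cox4i2, an alternative subunit of cytochrome oxidase, fell (1.3% of those tested).

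The lists of chromatin and developmental pathway genes held 0 to 3 calls each. None of 33 Polycomb genes was called, with a median of 0.00 and 1 higher with no minimum fold, and 5 passed an unadjusted p of 0.05 in limma. The list held 0 rises and 1 fall without MA9-c-Kit+ replicate 3. Of 16 DNA methylation genes 1 was called (6.25% of those tested against 7.24% of all genes). Dnmt3l, a catalytically inactive cofactor, rose, at 24.1, 18.3 and 16.1 TPM in MA9-IL-34 libraries, against 10.1, 8.91 and 8.36 TPM in MA9-c-Kit+ libraries (log2 fold change 1.002 ± 0.23, limma adjusted p = 0.0226), a call lost without MA9-IL-34 replicate 1 or 2 or MA9-c-Kit+ replicate 2 or 3 (log2 fold change 0.85 to 1.04, limma adjusted p = 0.0424 to 0.0996). Of 69 histone genes 2 rose (2.9% of those tested), among them H2afy2, a macroH2A variant, at 2.72, 3.28 and 2.9 TPM in MA9-IL-34 libraries, against 0.32, 0.44 and 0.54 TPM in MA9-c-Kit+ libraries (log2 fold change 1.47 ± 0.16, limma adjusted p = 0.000507). The list held 1 rise and 0 falls without MA9-IL-34 replicate 2 or MA9-c-Kit+ replicate 3 and 4 rises and 0 falls without MA9-c-Kit+ replicate 2. Jag2, a Notch ligand, was the 1 of 14 Notch genes that fell (7.14% of those tested), at 0.7, 0.77 and 0.67 TPM in MA9-IL-34 libraries, against 9.59, 4.72 and 5.82 TPM in MA9-c-Kit+ libraries (log2 fold change -2.12 ± 0.24, limma adjusted p = 0.000501). Of 22 TGF-beta genes, Eng fell, at 0.16, 0.06 and 0.16 TPM in MA9-IL-34 libraries, against 10.6, 9.09 and 5.15 TPM in MA9-c-Kit+ libraries (log2 fold change -2.99 ± 0.24, limma adjusted p = 7.40e-05), Acvr1, an activin and BMP receptor, fell, and Id1, a BMP target, rose (13.6% of those tested). That list held 0 rises and 1 fall without MA9-IL-34 replicate 1, 2 or 3. The call of Acvr1 was lost without MA9-IL-34 replicate 1, 2 or 3 or MA9-c-Kit+ replicate 1 or 2 (log2 fold change -1.42 to -0.89, limma adjusted p = 0.0324 to 0.101) and that of Id1 without MA9-IL-34 replicate 1, 2 or 3 or MA9-c-Kit+ replicate 2 (log2 fold change 0.80 to 1.29, limma adjusted p = 0.0234 to 0.121). Of 24 Wnt genes only Wnt10b, a secreted ligand, fell (4.17% of those tested), a call lost without MA9-IL-34 replicate 1, 2 or 3 or MA9-c-Kit+ replicate 1 or 3 (limma adjusted p = 0.0572 to 0.084).

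Transporters and abundant proteins held further changes. Of 34 tested of the 50 listed ABC transporters, 4 rose and 2 fell (17.6% of those tested against 7.24% of all genes). Abcc2, an exporter of conjugates, was at 49.1, 57.7 and 45.8 TPM in MA9-IL-34 libraries, against 6.79, 8.24 and 6.06 TPM in MA9-c-Kit+ libraries (log2 fold change 2.69 ± 0.25, limma adjusted p = 0.000183). Abcb1b, a drug efflux pump, was at 0.39, 0.01 and 0.03 TPM in MA9-IL-34 libraries, against 22.1, 31.7 and 16.3 TPM in MA9-c-Kit+ libraries, with no overlap (log2 fold change -4.38 ± 0.24, limma adjusted p = 7.51e-06). Of 8 tested S100 genes, 1 rose and 1 fell (25% of those tested). S100a11 rose, at 1478, 1707 and 1615 TPM in MA9-IL-34 libraries, against 856, 556 and 651 TPM in MA9-c-Kit+ libraries (log2 fold change 1.24 ± 0.15, limma adjusted p = 0.00075). S100a4 fell, at 0, 1.17 and 0.43 TPM in MA9-IL-34 libraries, against 11.01, 16.2 and 31.7 TPM in MA9-c-Kit+ libraries (log2 fold change -3.70 ± 0.38, limma adjusted p = 0.000345). Slpi, a secreted inhibitor of neutrophil elastase, had the largest fall in mean TPM of all called genes, at 295, 185 and 219.8 TPM in MA9-IL-34 libraries, against 1097, 2244 and 945 TPM in MA9-c-Kit+ libraries (log2 fold change -2.53 ± 0.30, limma adjusted p = 0.000703). Cotl1, an actin-binding protein, was at 434, 391.9 and 415 TPM in MA9-IL-34 libraries, against 133, 199.8 and 141 TPM in MA9-c-Kit+ libraries (log2 fold change 1.41 ± 0.14, limma adjusted p = 0.000322). Gstm1, a glutathione transferase of a multigene family, was at 851, 1049.8 and 1013 TPM in MA9-IL-34 libraries, against 450.4, 402 and 280.0 TPM in MA9-c-Kit+ libraries (log2 fold change 1.38 ± 0.31, limma adjusted p = 0.017), a call lost without MA9-IL-34 replicate 2 or 3 or MA9-c-Kit+ replicate 3 (limma adjusted p = 0.0525 to 0.0673). Sun2, a nuclear envelope protein, was at 461, 473 and 520.5 TPM in MA9-IL-34 libraries, against 203, 233 and 96.5 TPM in MA9-c-Kit+ libraries (log2 fold change 1.54 ± 0.35, limma adjusted p = 0.0209), a call lost without MA9-IL-34 replicate 1, 2 or 3 (limma adjusted p = 0.0637 to 0.0798). Slc25a37, the mitochondrial iron importer, rose by 1.08 on the log2 scale, and Cd163, the hemoglobin scavenger receptor, fell by 1.97, a call lost without MA9-IL-34 replicate 1 (limma adjusted p = 0.0537).

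**Figure D5:**
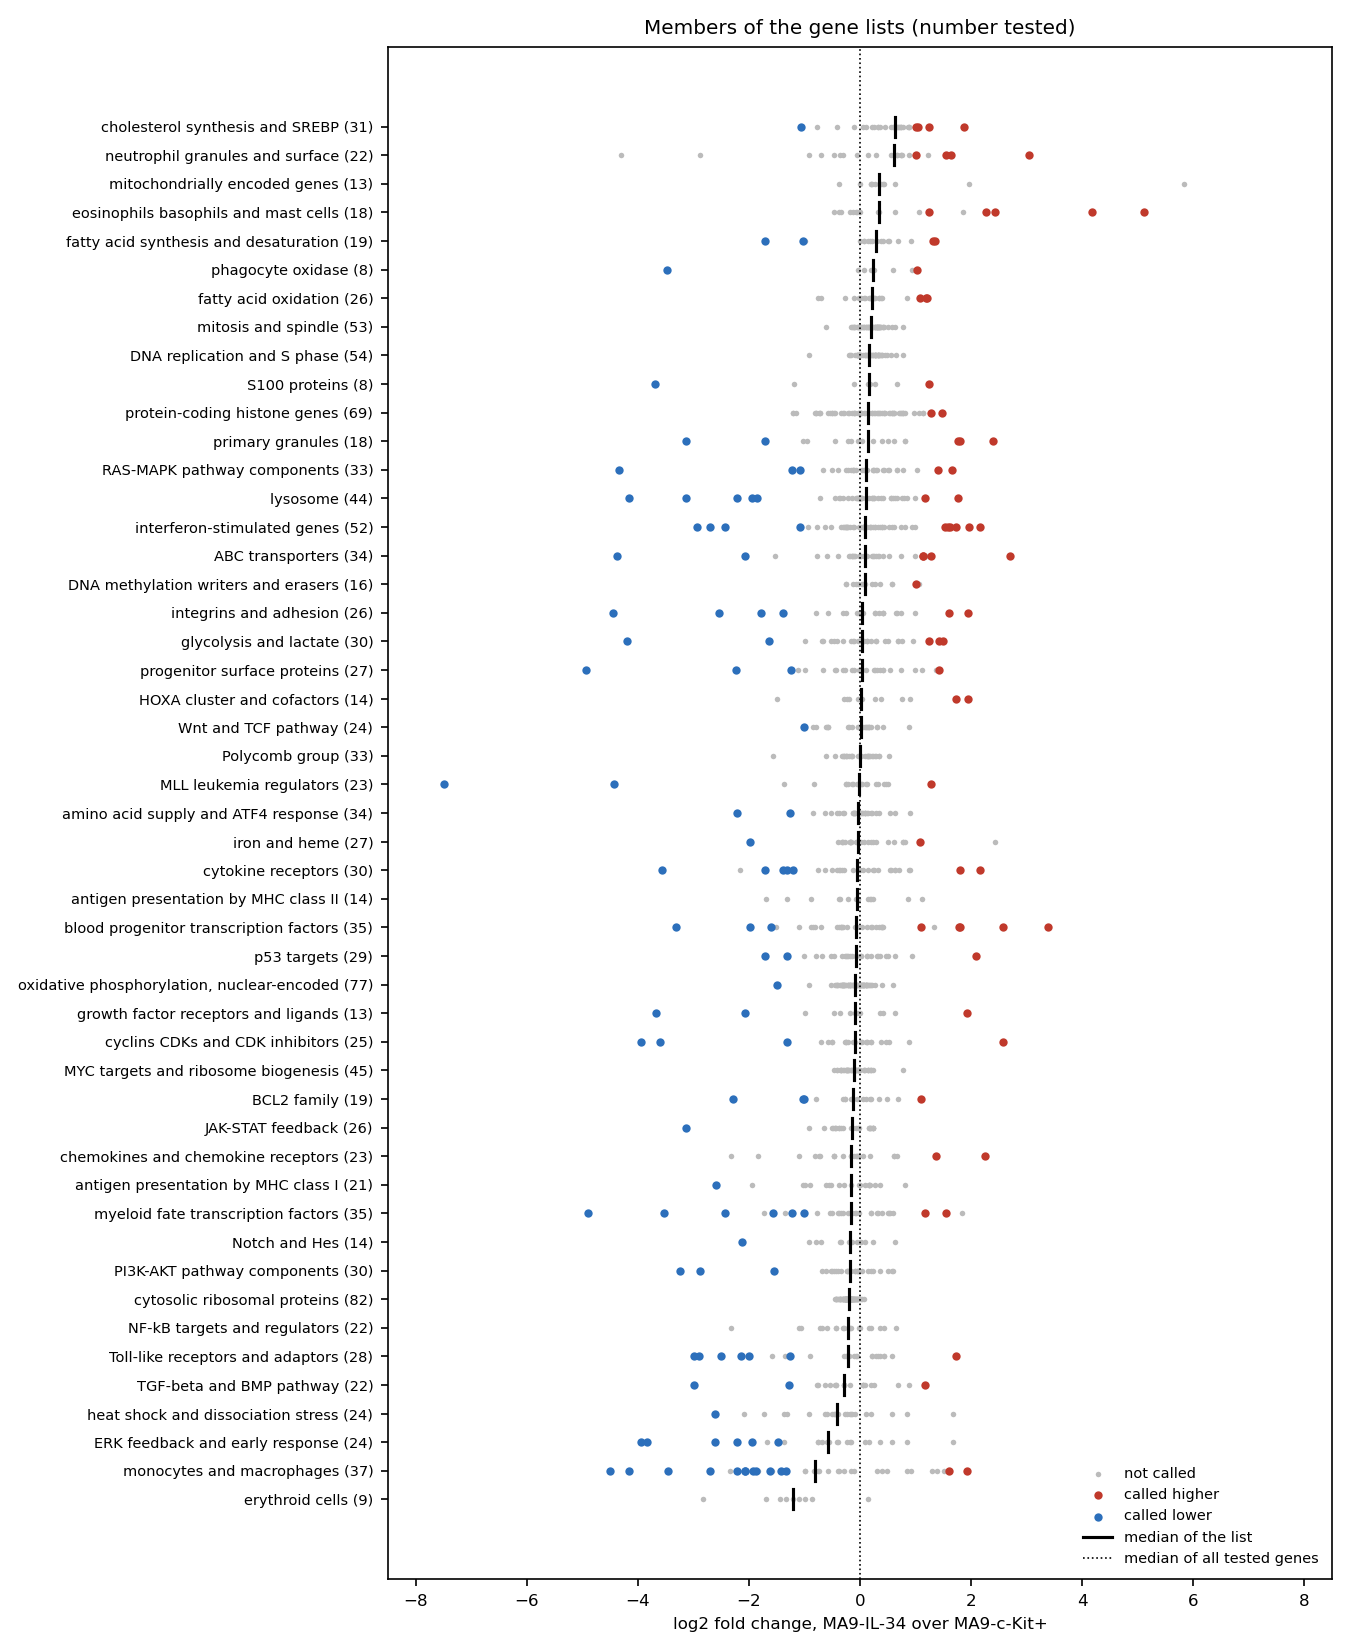
Each row is 1 gene list with at least 8 tested members (number in brackets), each point the log2 fold change of 1 member of MA9-IL-34 over MA9-c-Kit+ cells, red where it rose, blue where it fell and gray where it was not called; black ticks are list medians and the dotted line the median of all tested genes, 0.01. Monocyte genes (median -0.81) and ERK feedback genes (-0.57) lie to the left and cholesterol genes (0.62) to the right, and replication, mitosis and ribosomal protein genes cluster around their medians with no colored point.

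Called genes were also neighbors on the chromosomes. Of the 993, 212 lay in 98 runs of adjacent tested genes that moved in 1 direction, and 11 runs held 3 genes or more. The runs were looked for after the values were seen and were not tested, and no expected number was computed. Some held overlapping genes, such as Itga1 and a predicted gene, or genes of 1 family, such as Gstm1 and Gstm2, whose reads may have been shared. Siglecf, Siglecg, Nkg7 and Etfb, side by side in 106 kb of chromosome 7, all rose. Siglecg, a lectin of B cells, was at 34.3, 28.5 and 36.5 TPM in MA9-IL-34 libraries, against 2.76, 11.2 and 0.34 TPM in MA9-c-Kit+ libraries (log2 fold change 3.10 ± 0.69, limma adjusted p = 0.0184), a call lost without MA9-IL-34 replicate 1, 2 or 3 or MA9-c-Kit+ replicate 1 (limma adjusted p = 0.0527 to 0.0701). Nkg7, a granule protein of killer cells, was at 185, 153 and 209 TPM in MA9-IL-34 libraries, against 76.1, 67.8 and 25.9 TPM in MA9-c-Kit+ libraries (log2 fold change 1.80 ± 0.36, limma adjusted p = 0.0111), a call lost without MA9-IL-34 replicate 3 (limma adjusted p = 0.0532). Ifitm2, Ifitm1, Ifitm3 and Ifitm6, in 63.1 kb of the same chromosome, all fell, and Ifitm6 was at 0.65, 1.73 and 1.65 TPM in MA9-IL-34 libraries, against 15.9, 12.2 and 5.32 TPM in MA9-c-Kit+ libraries (log2 fold change -2.29 ± 0.35, limma adjusted p = 0.00256). Hdc rose with its neighbor Atp8b4, a lipid flippase, at 334, 281 and 317 TPM in MA9-IL-34 libraries, against 151, 182 and 92.4 TPM in MA9-c-Kit+ libraries (log2 fold change 1.18 ± 0.26, limma adjusted p = 0.0163), a call lost without MA9-IL-34 replicate 1 or 3 or MA9-c-Kit+ replicate 3 (log2 fold change 0.90 to 1.16, limma adjusted p = 0.0285 to 0.0673). F13a1 fell beside Ly86. By chromosome, the share that rose was highest on chromosome 9, at 5.23% against 3.86% of all genes. The share that fell was highest on chromosome 15, at 6.84% against 3.38% of all genes. By gene type, 449 of 11463 tested protein-coding genes rose and 400 fell, and 28 of 439 long intergenic noncoding genes rose and 17 fell. Over all 13722 tested genes 529 rose and 464 fell.

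Most listed markers of T, NK, stromal and endothelial cells were under the filter, while some genes of each list were present. Of 3 tested of the 18 listed T and NK cell genes, 2 rose and 1 fell (100% of those tested against 7.24% of all genes). A gene could pass the filter through MA9-IL-34 cells alone. Nkg7 rose, and so did Bcl11b, a T cell factor, at 7.6, 6.06 and 7.38 TPM in MA9-IL-34 libraries, against 0.54, 1.34 and 0.14 TPM in MA9-c-Kit+ libraries. Cd28, a T cell costimulator, fell, a call lost without MA9-IL-34 replicate 1, 2 or 3 or MA9-c-Kit+ replicate 1 or 2 or MA9-c-Kit- replicate 1 or 2 (limma adjusted p = 0.0577 to 0.132). Cd3e did not exceed 0.36 TPM and Ncr1 0.14 TPM in any of the 6 libraries. The 15 untested genes of that list did not exceed 1.53 TPM there. Of 3 tested of the 16 listed stromal and endothelial genes, Pdgfrb and Acta2 rose (66.7% of those tested). Lepr, the leptin receptor, was not called, at 27.8, 28.6 and 24.5 TPM in MA9-IL-34 libraries, against 25.4, 50.1 and 23.1 TPM in MA9-c-Kit+ libraries (log2 fold change -0.19 ± 0.25, limma adjusted p = 0.692). The 13 untested genes, Col1a1 and Cdh5 among them, did not exceed 0.72 TPM in the 6 libraries. None of the 5 tested B cell genes was called by limma (0 at an unadjusted p under 0.05), and Cd79a, a chain of the B cell receptor, did not exceed 0.66 TPM in any of the 6 libraries. Ighm, the immunoglobulin mu heavy chain, was at 49.0, 17.5 and 25.3 TPM in MA9-IL-34 libraries, against 57.7, 238.6 and 20.2 TPM in MA9-c-Kit+ libraries. Erythroid genes had a median of -1.21 over 9 tested, or -0.64 without MA9-c-Kit+ replicate 3, with no limma call and 0 genes at an unadjusted p under 0.05. Their sum was 42.0 to 58.5 TPM in MA9-IL-34 libraries, against 36.8 to 169 TPM in MA9-c-Kit+ libraries, and Car1, a carbonic anhydrase of red cells, reached 63.9 TPM in MA9-c-Kit+ replicate 3. Of 6 megakaryocyte genes, Gp9, a platelet glycoprotein, rose and Vwf, von Willebrand factor, fell (33.3% of those tested). Heat shock and handling genes had a median of -0.41 (-0.59 to -0.16 with 1 library left out) with 1 fall, that of Jun, and no rise (4.17% of those tested). The part of these cells and of handling in the other results was not tested.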

How the data were processed

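RNA was sequenced from 9 libraries of mouse leukemia cells sorted from bone marrow. The authors deposited 1 table of TPM per gene with 2 decimals, which is normalized for gene length and library total; the aligner, quantifier and genome build are not given in the sources used here. All 55536 gene identifiers matched GENCODE M21 (GRCm38). The 13722 genes at 1 TPM or more in 3 or more libraries were put on the log2(TPM + 1) scale and fitted with group means over all 9 libraries in limma 3.58.1 (R 4.3.3) with a trended prior. A gene was called at an adjusted p (Benjamini-Hochberg) under 0.05 and a change of at least 2-fold. An exact permutation test of 3 against 3 libraries cannot go below p = 0.1, so none was run. The fit was tested on simulated data. Tables and plots were made with Python 3.11.15, pandas 2.3.3 and matplotlib 3.10.9.

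Named genes were, in each direction, the 15 called genes with the largest change among those without overlap whose higher group averaged 10 TPM or more, the 8 with the largest difference in mean TPM, the genes the study followed up, and up to 5 called members per list with the smallest p. Predicted genes and pseudogenes were counted but not named. Genes named outside this rule were chosen after their values were seen. Some genes that the rule named are not reported here. The members and the 56 lists were chosen with earlier results of these data known, so the share called in a list does not measure enrichment. Alternatives covered the filter, pseudocount, scaling, fold minimum, prior, samples and a replicate block.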

Additional observations from a re-analysis of the deposited data

How the results depend on the processing

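No called gene reversed its direction under any of the 21 alternatives run on the 161 called genes named by rule. A reversal could hardly occur, since every called gene separated the groups and many alternatives left its fold change as it was. The lack of one is therefore no support for the calls. Of the 161 genes, 60 kept their call under every one of the 21 in which they were tested. With no minimum fold, 1772 genes were called (1019 higher and 753 lower in MA9-IL-34 cells), and with limma's treat against a 2-fold change 212 (103 higher and 109 lower), against 993 (529 and 464). Without each library in turn the total ran from 762, without MA9-IL-34 replicate 3, to 1140, without MA9-c-Kit+ replicate 2, with 413 to 628 higher and 342 to 512 lower. Of the 161 genes, 118 kept their call without each library and 43 lost it without at least 1. No filter gave 830 genes, a filter of 5 TPM 750, a pseudocount of 0.1 1165, and the 6 compared libraries alone 941, and 26, 0, 4 and 17 of the 161 genes lost their call there, where tested.

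Deviations of same-numbered libraries from their group means correlated at -0.150, -0.279 and -0.0946, and no library correlated best with its own number. These values cannot exclude a shared mouse or sort. Deviations within a group depend on one another, and the labels gave no source mouse. With the replicate block 1007 genes were called (530 higher and 477 lower), of which 958 were among the 993, and 4 of the 161 genes lost their call. At an unadjusted p under 0.05, 3565 genes passed. Without counts, how depth limits the low genes is unknown, and changes of genes near 0 TPM are understated on the log2(TPM + 1) scale. In lists with a call of 0, genes under the 2-fold minimum may still differ.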
